A study of Mus musculus with 4 samples.

Results

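The cells described here are E9.5 mouse heart cells that express Osr1, a zinc-finger transcription factor of the splanchnic mesoderm behind the heart, and that fall below the gates used to set aside other cell types. They were selected on measured values, by a rule on the counts of each cell in the E9.5 library: at least 500 genes, at most 10% mitochondrial UMIs (unique molecular identifiers, 1 per captured transcript), and at least 2 Osr1 UMIs. The summed level of the myocyte genes Myl7, Myl4, Tnnt2 and Actc1 had to be under 100 UMIs per 10000, and that of the globin genes under 1000. Fewer than 3 proepicardial genes (Tbx18, Upk3b, Wt1, Tcf21, Upk1b), fewer than 3 pharyngeal genes (Crabp1, Barx1, Dlx5, Prrx1) and fewer than 4 endothelial genes (Cdh5, Pecam1, Emcn, Egfl7, Ecscr, Esam) could be detected. Single gate genes were allowed: 15 of the cells had none of the proepicardial genes, 25 none of the pharyngeal and 16 none of the endothelial. The rule found 55 cells among the 1199 E9.5 cells that passed the quality limits, a share of 4.59% (exact Clopper-Pearson 95% interval 3.47 to 5.93), and among 2160 cells in the whole series. Osr1 and the gate genes chose the cells, so their values below are descriptions and not findings.

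The study followed progenitors of the mitral valve. Every library came from C57BL/6 mice of a Tie2-Cre by Rosa26 tdTomato cross, in which cells that have expressed the Tie2 (Tek) driver, and their descendants, are labelled with the red reporter. The atrioventricular canal (AVC) gave 1 library at embryonic day 9.5 (E9.5). The mitral valve gave 1 at E16.5 and, at birth (P0), 2 more. Tissue from at least 60 embryos per stage was pooled, dissociated, sorted for tomato and captured with the 10x Genomics single-cell 3' kit. The pooled E9.5 cells cannot be assigned to embryos, all E9.5 groups share the same cross and sort, and the reporter is not among the genes counted, so the label could not be checked cell by cell. With 1 library at E9.5 and cells not being replicates, no difference below was tested, and every interval covers counting error only, not the spread between cells or embryos.

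Osr1 marks the posterior part of the second heart field, the mesoderm that adds cells to the venous pole of the heart. In this region of the mouse embryo, Isl1, Tbx5 and Foxf1 act in progenitors of the atrial septum, lung mesenchyme and inflow tract. Wnt2 marks progenitors that give rise to both heart and lung cells, Aldh1a2 makes the retinoic acid that patterns the field, and Hedgehog from the foregut endoderm is received there. Nr2f2 (COUP-TFII) is a nuclear receptor of atrial and venous identity, and Bmp4 is a secreted ligand of the dorsal mesocardium and its surroundings.

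The E9.5 library held 1206 cells and 30819374 UMIs, with a median of 24564.5 UMIs per cell, and 7 cells exceeded the mitochondrial limit. The 55 Osr1 cells held 1184681 UMIs, with 5890 to 50174 UMIs per cell and a median of 21202, and a median of 4742 genes. They were compared with the 351 other cells under the same myocyte and globin limits (8505088 UMIs). Those comprised 152 endothelial-type, 50 proepicardial-type and 25 pharyngeal-type cells, named here by the gates above, 123 cells in no gate and 1 cell in several. Another 544 cells were over the myocyte limit and 249 over the globin limit. Haemoglobin and other erythroid transcripts summed to 62.3 UMIs per 10000 in the Osr1 cells against 64.8 to 77.2 in the other cells outside the erythroid group and 3794 in the erythroid-type cells, so a like level of erythroid RNA was present in every group. A doublet caller (scrublet) marked 4 of the 1199 cells, none of them an Osr1 cell.

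Osr1 lies on chromosome 12 from 9570116 to 9581500 on the plus strand (GRCm38, the build called mm10). The 55 cells held 2 to 26 Osr1 UMIs, with a median of 6. Exactly 2 UMIs were found in 10 cells and 10 or more in 19. In all, 109 of the E9.5 cells had 2 or more Osr1 UMIs, of which 50 were over the myocyte limit, 2 were in the proepicardial gate, 1 in the pharyngeal gate and 1 in the endothelial gate. No erythroid-type cell had 2, and 3 of 249 had 1. Osr1 was at 0 in the E16.5 library (1021188 UMIs, exact Poisson upper limit 0.0361 UMIs per 10000) and in the first P0 library, and at 1 UMI in the second.

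Just inside the Osr1 threshold, the 10 cells with 2 UMIs had 2.52 Wnt2 UMIs per 10000 (95% Poisson interval 1.91 to 3.26), 1.10 of Bmp4, 2.43 of Foxf1 and 0.928 of Isl1. Just outside it, the 11 ungated cells with 1 Osr1 UMI had 0.350 of Wnt2 (0.151 to 0.689), 0.394 of Bmp4, 1.53 of Foxf1 and 0.743 of Isl1. In the 19 cells with 10 or more Osr1 UMIs the corresponding levels were 3.92 for Wnt2, 2.03 for Bmp4, 2.95 for Foxf1 and 1.61 for Isl1. Around the myocyte limit, 5 cells had a myocyte sum of 80 to 100 and 3 Osr1 cells left out had 100 to 120. Inside the limit Wnt2 was at 6.61 UMIs per 10000 (4.76 to 8.93) and Bmp4 at 5.66 (3.97 to 7.84), and outside it at 1.47 (0.633 to 2.89) and 0.733 (4 UMIs in 3 cells). Nr2f2 was at 7.23 and 7.88, Nkx2-5 at 4.09 and 5.86, and Foxf1 at 0 on both sides.

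The other markers of the label, Bmp4, Wnt2 and Nr2f2, were not used by the rule. The cells and gene lists were chosen with earlier results of these data known, so the levels of these markers describe the label and do not test it. Wnt2, on chromosome 6 from 17988940 to 18030585, was at 0 to 26 UMIs per cell with a median of 6, and 45 of 55 cells had at least 1. Its level was 3.50 UMIs per 10000 (95% interval 3.17 to 3.86) against 0.508 (0.461 to 0.558) in the other non-myocyte cells, a ratio of 6.90 (6.01 to 7.91). The myocyte-type cells, at 2.57, and the proepicardial-type cells, at 1.40, came next, and the ratio over the latter was 2.51 (2.11 to 2.99). Bmp4, on chromosome 14 from 46383520 to 46390669, was at 0 to 21 UMIs with a median of 2, and had a level of 1.62 (1.40 to 1.87) against 0.194 (0.166 to 0.226), a ratio of 8.35 (6.75 to 10.3). Its next highest level was 0.429, in the myocyte-type cells. Nr2f2, on chromosome 7 from 70351944 to 70366735, was at 0 to 23 UMIs with a median of 6, and had a level of 3.42 (3.09 to 3.77) against 0.804 (0.745 to 0.867), a ratio of 4.25 (3.75 to 4.81). Proepicardial-type cells followed at 1.26. For these 3 genes the intervals of the Osr1 cells lay above those of the 6 other groups.

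The depth of a cell sets how often a rare transcript is seen, so shares were also taken after thinning each cell to 5000 UMIs. Thinned, Wnt2 was found in 39 of 55 cells (70.9%, exact 95% interval 57.1 to 82.4), against 14.8% of the other non-myocyte cells and 6.43% of the erythroid-type cells, where it gives the level of free RNA. Nr2f2 was found in 65.5% against 29.9% and 2.01%, and Bmp4 in 38.2% against 7.12% and 0.803%. Unthinned, the shares in the Osr1 cells were 81.8%, 92.7% and 65.5%, and in the erythroid-type cells, with a median of 32559 UMIs, 23.3%, 10.0% and 2.81%. All 3 markers were found together in 33 cells unthinned and 15 thinned, and none of them in 2 and 8 cells. Thinned, 19 cells had 2 of the 3 markers and 13 had 1. All 3 were thus seen in most of the cells only at full depth. The label was not met by every cell, as the single cells show further below.

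**Figure D1:**
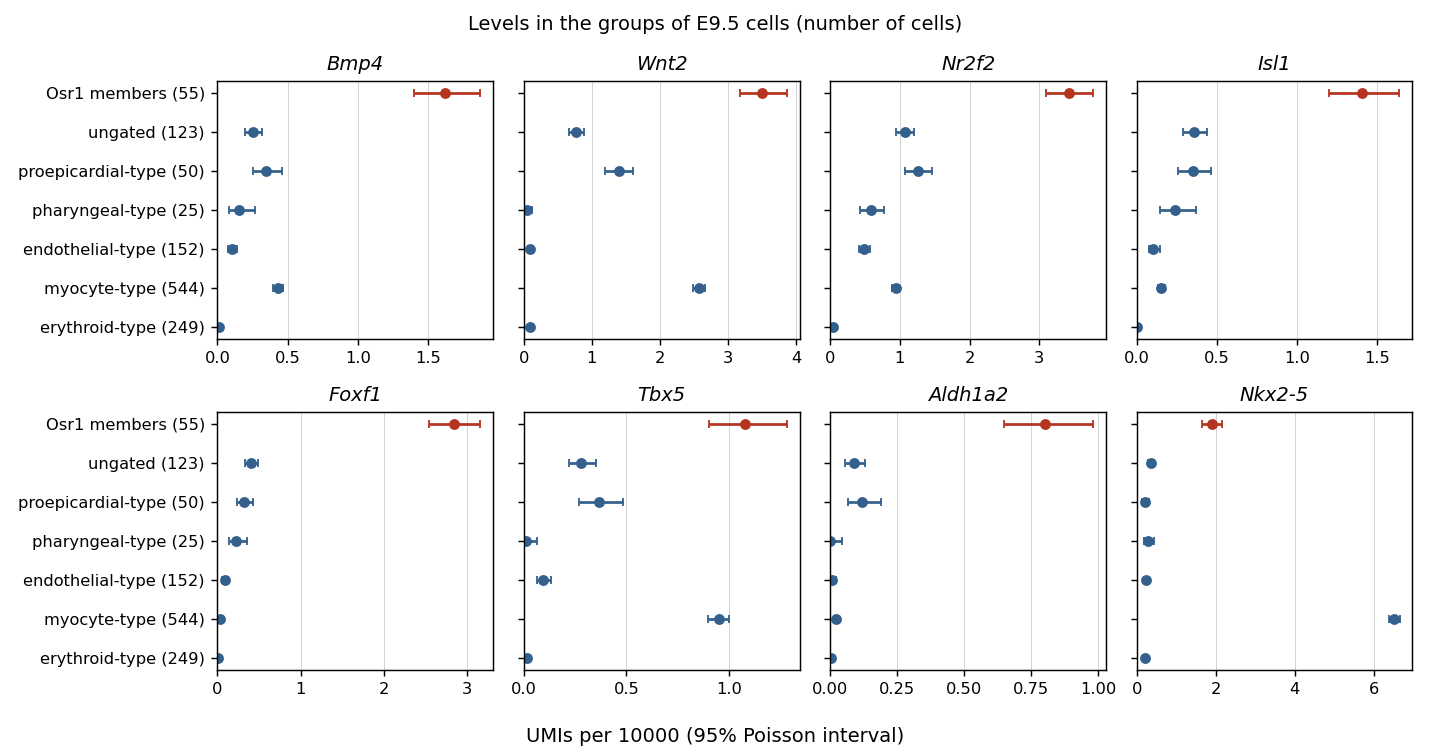
UMIs per 10000 of 8 genes in 7 groups of E9.5 cells, with 95% Poisson intervals. The Osr1 cells (red) were at 1.62 for Bmp4, 3.50 for Wnt2 and 3.42 for Nr2f2 and above the other groups in 7 panels. Nkx2-5, at 1.90, lay below the myocyte-type cells at 6.51.

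Promoters are shown for the 3 markers and for Isl1 and Aldh1a2, as the sequence next to which a reader may set these levels. They run from 250 bases before to 50 after the RefSeq start (GRCm38.p6). Of 12 genes looked up (the 4 markers, Foxf1, Isl1, Tbx5, Aldh1a2, Rspo2, Hsd11b2, Arg1 and Nkx2-5), 6 were in the table. In these 6, both strands were searched for 6 motifs: AGATAA for GATA factors, AGGTGT for T-box factors, GACCACCCA for Gli factors, TGTTTAC for Fox factors, CACTTGA for Nkx2-5 and TATAAA. Capitals mark a match.
Wnt2 promoter, chr6:18030396-18030695, strand -: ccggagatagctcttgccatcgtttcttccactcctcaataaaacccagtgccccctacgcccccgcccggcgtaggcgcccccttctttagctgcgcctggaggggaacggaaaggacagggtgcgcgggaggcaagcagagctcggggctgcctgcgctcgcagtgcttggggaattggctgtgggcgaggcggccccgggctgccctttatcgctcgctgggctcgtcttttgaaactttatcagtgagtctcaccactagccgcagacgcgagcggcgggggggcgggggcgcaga
Bmp4 promoter, chr14:46390620-46390919, strand -: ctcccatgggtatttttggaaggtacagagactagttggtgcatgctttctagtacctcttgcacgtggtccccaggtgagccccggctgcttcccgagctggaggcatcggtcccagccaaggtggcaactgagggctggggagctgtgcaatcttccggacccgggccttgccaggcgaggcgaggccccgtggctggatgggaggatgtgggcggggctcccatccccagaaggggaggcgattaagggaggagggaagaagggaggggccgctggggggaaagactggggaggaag
Nr2f2 promoter, chr7:70366697-70366996, strand -: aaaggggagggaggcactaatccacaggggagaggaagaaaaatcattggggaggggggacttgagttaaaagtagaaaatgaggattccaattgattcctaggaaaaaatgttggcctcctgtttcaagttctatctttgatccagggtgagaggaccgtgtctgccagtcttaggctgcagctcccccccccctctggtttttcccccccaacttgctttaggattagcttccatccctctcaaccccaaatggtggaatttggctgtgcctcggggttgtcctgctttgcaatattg
Isl1 promoter, chr13:116309639-116309938, strand -: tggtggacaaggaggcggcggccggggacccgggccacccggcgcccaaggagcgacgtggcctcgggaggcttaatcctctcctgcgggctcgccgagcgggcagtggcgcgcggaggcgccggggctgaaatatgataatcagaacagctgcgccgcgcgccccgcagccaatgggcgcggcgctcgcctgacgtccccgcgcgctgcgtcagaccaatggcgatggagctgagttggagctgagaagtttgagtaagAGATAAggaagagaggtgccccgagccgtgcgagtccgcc
Aldh1a2 promoter, chr9:71215539-71215838, strand +: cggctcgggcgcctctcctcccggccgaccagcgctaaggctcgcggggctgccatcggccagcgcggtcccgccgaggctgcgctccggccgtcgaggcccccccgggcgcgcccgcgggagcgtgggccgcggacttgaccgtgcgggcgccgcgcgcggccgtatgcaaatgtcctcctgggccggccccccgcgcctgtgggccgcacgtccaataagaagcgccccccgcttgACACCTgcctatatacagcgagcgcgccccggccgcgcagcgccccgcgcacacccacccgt
Isl1 held AGATAA just after its start, and Aldh1a2 held the T-box letters on the other strand, as ACACCT. The other 4 promoters, Nkx2-5 included, held none of the 6 motifs, which says only that these letters are not in these windows. Among all 32851 promoters of this length, AGATAA was found in 11.2%, AGGTGT in 13.7%, GACCACCCA in 0.253%, TGTTTAC in 3.65%, CACTTGA in 3.06% and TATAAA in 13.6%. The motifs were chosen with the levels of these genes known, and a match is not evidence of binding.

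Beyond the markers, Foxf1, Isl1, Tbx5 and Aldh1a2 had their highest levels among the 7 groups in the Osr1 cells. Foxf1, a forkhead factor of splanchnic mesoderm on chromosome 8 from 121084386 to 121088144, was at 0 to 29 UMIs per cell with a median of 3. Its level was 2.84 UMIs per 10000 (2.54 to 3.16) against 0.239 (0.207 to 0.274) in the other non-myocyte cells, a ratio of 11.9 (9.95 to 14.2), and the next highest group, the ungated cells, was at 0.409. Isl1, a LIM-homeodomain factor of second heart field progenitors, was at 1.41 (1.20 to 1.64) against 0.236 (0.205 to 0.271), with 0 to 19 UMIs per cell and a median of 1. Tbx5, the T-box factor of the inflow tract and lung mesenchyme, was at 1.08 (0.901 to 1.28) against 0.188 (0.160 to 0.220). The myocyte-type cells came close to it, at 0.949, with an interval that overlapped. Aldh1a2, the enzyme that makes retinoic acid, had a ratio of 16.6 (11.4 to 24.6), from 95 UMIs against 41, and its level of 0.802 compares with 0.117 in the proepicardial-type cells.

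Not every gene of the list was high. Gata4, a zinc-finger factor of cardiac mesoderm and endocardium, was at 1.25 (1.06 to 1.47) in the Osr1 cells and 1.21 (1.14 to 1.29) in the other non-myocyte cells, whose endothelial-type cells were at 1.52. Gata6 was at 2.49 against 1.05. Hand1, a basic helix-loop-helix factor, was at 0.287 against 0.299, but 29 of its 34 UMIs lay in 2 cells rich in Lum. Without 8 cells that carried Epcam or Lum, described with the single cells, its log2 fold was -1.63. Sfrp5, a secreted Wnt inhibitor of the inflow region, was at 0.869 in the Osr1 cells and 2.63 in the proepicardial-type cells.

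Counted over the list of 17 posterior heart field genes, 14 passed a level filter of 0.25 UMIs per 10000 (mean of both groups) against the other non-myocyte cells. A gene could pass through its level in the Osr1 cells alone. The list also holds Bmp4, Wnt2 and Nr2f2 and was chosen with earlier results of these data known, so the counts describe the list and do not test it. With 0.1 UMIs per 10000 added to both levels, 10 of the 14 were at least 2-fold higher, none was at least 2-fold lower, and the median log2 fold was 1.63. Over all 5100 genes that passed, 2.33% were at least 2-fold higher and 2.53% at least 2-fold lower, with a median of 0.056. Against the proepicardial-type cells, 8 of 15 were higher and 1, Sfrp5, lower, where 2.08% of 5089 genes were higher and 2.28% lower. The median of the list was 1.10 there. Against the pharyngeal-type cells, 11 of 13 were higher and none lower, where 5.23% of 4916 genes were higher and 1.24% lower, and the median was 2.97.

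**Figure D2:**
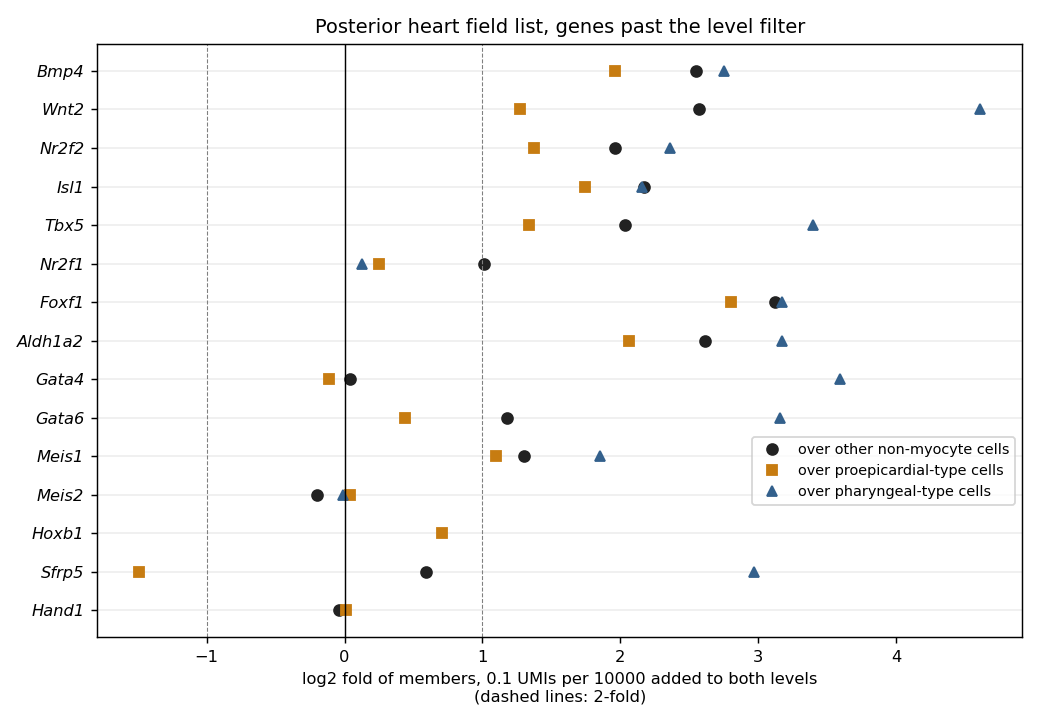
Log2 fold of the Osr1 cells over 3 groups for the genes of the posterior heart field list that passed the level filter; a gene without a mark in a comparison did not pass. Most marks lie right of the 2-fold line, Gata4, Meis2 and Hand1 lie near 0 for the first 2 groups (Hand1 at -1.63 over the first without the 8 Epcam and Lum cells), and Sfrp5 lies left of 0 against the proepicardial-type cells.

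Lists of neighbouring territories were counted in the same way. Of the lung and foregut mesoderm list, which shares Wnt2, Foxf1 and Tbx5 with the previous one, 4 of 11 genes passed the filter, and all 4, with Hoxa5 (0.439 against 0.139), were higher than in the other non-myocyte cells. Nkx6-1, a homeobox gene, did not pass it, but 31 UMIs in 11 Osr1 cells compared with 5 UMIs in the 351 other cells, a ratio of 44.5 (17.2 to 147). Tbx4 (1 UMI), Wnt2b (2) and Fgf10 (3), genes of lung mesenchyme, were at or below the floor of 3 UMIs in the Osr1 cells. Of the anterior heart field and pharyngeal list, 3 of 13 passed, and 2 of these were lower: Hand2 (0.380 against 0.885) and Ebf1 (0.0760 against 1.07). Of the septum transversum and mesothelium list, 2 of 12 genes passed against the other non-myocyte cells, and both were within 2-fold. Against the proepicardial-type cells, whose gate used mesothelial genes, 5 of the 6 genes that passed were lower, with log2 folds from -3.60 for Lhx9 to -1.77 for Krt19. Of 9 intermediate mesoderm genes, 1 passed against the other non-myocyte cells, Gata3, within 2-fold.

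Of 10 early cardiac genes, 5 passed the filter against the other non-myocyte cells. Of these, 2 were at least 2-fold higher, 1 was lower and 2 were within 2-fold. Nkx2-5, the homeobox factor of early cardiac cells, was at 1.90 UMIs per 10000 (1.66 to 2.16) against 0.280 (0.245 to 0.318) in the other non-myocyte cells and 6.51 (6.37 to 6.65) in the myocyte-type cells. Thinned, it was found in 50.9% of the Osr1 cells, 12.5% of the other cells and 6.43% of the erythroid-type cells. Smarcd3, a chromatin remodelling subunit of cardiac progenitors, was at 1.37 against 0.509. Myocd, a cofactor of muscle genes that did not pass the filter, was at 0.236 against 0.0247. Tbx20 was at 0.447 against 0.848 and Hey1, a Notch target, at 0.160 against 0.451.

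Ligands, receptors and targets of the signals known in this region were uneven. Over all 5100 genes that passed the filter, 2.33% were at least 2-fold higher than in the other non-myocyte cells and 2.53% lower. A gene could pass through its level in the Osr1 cells alone, as Rspo1, Rspo2 and Aldh1a2 did. The list counts here and below therefore describe the lists and do not test them. Among 10 Wnt genes that passed the filter against the other non-myocyte cells, 4 were at least 2-fold higher (Wnt2, Fzd7, Rspo1, Rspo2) and none lower. Rspo2, which strengthens Wnt signals at the cell surface, was at 0.515 (0.394 to 0.661) against 0.0282 (0.0181 to 0.0420), a ratio of 18.2 (11.2 to 30.6), and was found in 20 cells. Rspo1 was at 0.726 against 0.0800. Of 12 BMP genes, Bmp4 and Fst were higher and Smad6 and Msx1, both induced by BMP, were lower. Fst, a secreted inhibitor, had 46 of its 58 UMIs in the 2 Lum cells, and without the 8 Epcam and Lum cells its log2 fold was 0.29 and Bmp4 alone was higher. The BMP targets Id1, Id2 and Id3 were within 2-fold, and Id1 was at 2.34 against 2.61 and Id2 at 10.5 against 6.02. Of 3 Hedgehog genes that passed, Ptch1 was higher, and Smo (0.566 against 0.508) and Gas1 (0.599 against 0.808) were within 2-fold. Ptch1, the Hedgehog receptor and a target of the pathway, was at 0.658 (0.520 to 0.822) against 0.138 (0.114 to 0.165), with 0.113 in the myocyte-type cells. Gli1, another Hedgehog target that did not pass the filter, had 25 UMIs in 15 Osr1 cells and 27 in the 351 others, a ratio of 6.65 (3.70 to 11.9), but was found in none of the thinned Osr1 cells. Of the retinoic acid list, 1 of 5 genes was higher, Aldh1a2.

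Hox genes, which mark position along the body axis, were sparse. Of 39 listed, 19 had no UMI in the Osr1 cells, and the sum was 3.94 UMIs per 10000 (3.59 to 4.32) against 1.67 (1.59 to 1.76) in the other non-myocyte cells and 3.09 in the ungated cells. Hoxb1 was at 0.363 against 0.103 (also in the posterior heart field list but under its level filter), and Hoxb4 was at 0.574 against 0.234. Of the 43 Hoxb1 UMIs, 15 lay in 2 of the 6 Epcam cells described with the single cells. Of their Meis and Pbx cofactors, 1 of 6, Meis1, was at least 2-fold higher, at 1.29 against 0.466. Cell cycle genes were alike: all 15 S-phase and all 15 G2/M genes were within 2-fold of the other non-myocyte cells.

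Adhesion, matrix and growth genes were split. Of 12 mesenchyme and adhesion genes that passed the filter, Cdh11, a mesenchymal cadherin (0.836 against 0.215 UMIs per 10000), and Tgfb2, a ligand of the TGF-beta family (1.85 against 0.642), were higher than in the other non-myocyte cells. Lower were Vim, an intermediate filament gene (4.16 against 14.3), Twist1 (0.169 against 0.848), Sox9, a factor of valve mesenchyme (0.0760 against 1.05), and Pdlim3 (0.0760 against 2.08). Of 20 matrix genes, 6 were higher (1 without the 8 Epcam and Lum cells) and 6 lower. Col9a1 was at 1.08 against 0.216, while Fn1 (fibronectin) was at 1.22 against 5.81 and Hapln1, which links hyaluronan in cardiac jelly, at 0.743 against 5.25. Of 10 imprinted growth genes 9 were within 2-fold, and Cdkn1c, a cell cycle inhibitor, was lower, at 7.51 against 28.6. Without the 8 Epcam and Lum cells 2 were lower, the other being Dlk1, a membrane protein gene of the Notch family, whose log2 fold went from -0.64 to -2.42 since 145 of its 209 UMIs lay in the 2 Lum cells. Both sinus venosus genes that passed, Isl1 and Vsnl1 (1.25 against 0.386), were higher, and the 3 FGF and PDGF genes that passed were within 2-fold. Of the 351 other cells, 152 were endothelial-type. In these 152, mesenchyme and adhesion genes summed to 31 UMIs per 10000, matrix to 38.6 and imprinted growth to 124. The Osr1 cells had 10.3, 23.9 and 52.1, and the matrix sum of single Osr1 cells had a median of 12.3 and a maximum of 443. Against the proepicardial-type cells, with all 55 Osr1 cells, 6 of 17 matrix genes were higher and 1 lower, and against the pharyngeal-type cells 8 of 16 and 0. Without the 8 Epcam and Lum cells, log2 folds over the proepicardial-type cells were -0.91 for Lum, -1.01 for Postn and -1.70 for Col1a1. Mesenchyme and adhesion counts were 3 and 4 of 10, then 4 and 2 of 10, and imprinted growth counts 0 and 2 of 10, then 3 and 1 of 10. Over all genes that passed, 2.08% were higher and 2.28% lower than in the proepicardial-type cells. The shares against the pharyngeal-type cells were 5.23% and 1.24%.

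Outside the lists, the 20 genes with the highest fold over the other non-myocyte cells were named by a rule on fold, level and the share of thinned cells. Mbnl3, an RNA-binding protein gene on the X chromosome, was at 2.09 (1.84 to 2.37) against 0.165 (0.138 to 0.194), a ratio of 12.7 (10.3 to 15.8), and was found in 31 cells. Arg1, the arginase of the urea cycle, was at 1.48 against 0.142, a ratio of 10.4 (8.19 to 13.2). It was at 3.09 in the 6 Epcam cells described with the single cells, and without the 8 Epcam and Lum cells its log2 fold was 2.58. Hsd11b2, which inactivates glucocorticoids, was at 1.39 against 0.163, a ratio of 8.52 (6.76 to 10.8). Bhlhe41, a transcriptional repressor of the circadian system, was at 0.625 against 0.0294, a ratio of 21.3 (13.3 to 34.9). These 4 were also lower in the myocyte-type cells, at 0.0709, 0.0304, 0.0670 and 0.117.

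Wisp1 (a secreted matricellular protein), Arl4a, Ifitm1, Cdo1, Tox3, Bcat1, Uchl1, Zfp503 and Gpc3 had ratios of 3.02 to 9.05. The remaining 7, Atp1b1, Rbm24, Csrp3, Ccdc141, Eno3, Unc45b and Sh3bgr, include muscle genes, and all 7 were lower, not higher, when all other E9.5 cells, myocytes among them, were the comparison. Csrp3, a muscle LIM protein, was at 1.90 in the Osr1 cells and 0.531 in the other non-myocyte cells. The 10 lowest genes were led by endothelial and endocardial genes: Ramp2 had 16 UMIs in the Osr1 cells (0.135 per 10000) against 3.70, Eng 10 UMIs (0.0844) against 2.54, and Cd34 5 UMIs (0.0422) against 0.994. The rule left out cells with 4 or more endothelial gate genes, and 152 of the 351 other cells met that gate. Low endothelial genes were therefore set by the selection and are a description, not a finding. Among the 13 listed endothelial genes, the driver Tek had 5 UMIs in 5 Osr1 cells, a level of 0.0422 against 1.29 in the endothelial-type cells.

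**Figure D3:**
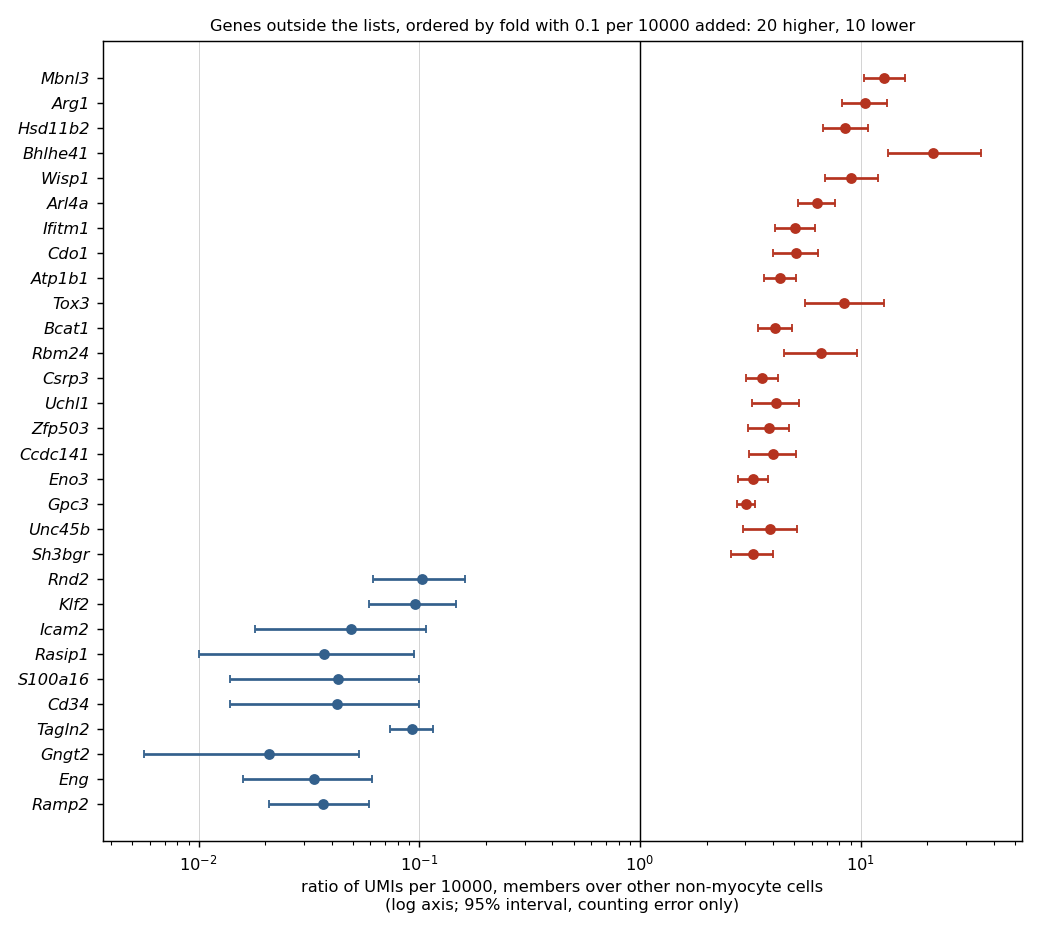
Ratio of UMIs per 10000 in the Osr1 cells over the 351 other non-myocyte cells (log axis) with 95% intervals for counting error, for 20 genes higher and 10 lower. Bhlhe41 has the highest ratio, 21.3, and Gngt2 the lowest, 0.0208.

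Against the 50 proepicardial-type cells, another mesodermal group, Mbnl3 (ratio 23.9, 13.4 to 46.8), Cdo1 (9.86) and Dpysl3 (7.35) were among the 8 highest. Tubb3, Lbh and Itga4, an integrin of the epicardium, were lowest, with 8, 5 and 5 UMIs in the Osr1 cells and ratios of 0.0350, 0.0280 and 0.0401. Against the 25 pharyngeal-type cells, Atp1b1 (34.0, 14.4 to 106), Wisp1 (29.8, from 3 UMIs in the pharyngeal-type cells, 9.95 to 146) and Hsd11b2 (29.2) were among the 8 highest. Wisp1 had 27 UMIs in the 2 Lum cells and 29 in 1 other Osr1 cell. Without the 8 Epcam and Lum cells its log2 fold over the other non-myocyte cells was 2.28. Dlx6os1 had no UMI in the Osr1 cells and 66 in the pharyngeal-type cells, and was at least 31.1-fold lower against a floor of 3 UMIs. The gate of the pharyngeal-type cells used Dlx5, which lies beside Dlx6os1 on chromosome 6, so this difference was not independent of the selection. In this comparison 6 of 7 genes of the dissociation response were also higher in the Osr1 cells, Fos by 3.72 and Jun by 3.01 on the log2 scale, and the list summed to 12.3 UMIs per 10000 against 3.44. The part of that response in the other differences from the pharyngeal-type cells was not tested.

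Over the 7 groups of E9.5 cells, the genes with the pattern most like that of Osr1 by Pearson r of log2 levels were Bhlhe41 (0.980), Slc25a51 (0.932), Rspo2 (0.919), Lcmt1 (0.918), Bmp4 (0.914), Ppp1r17 (0.913), Actr8 (0.907) and Aldh1a2 (0.904). The groups come from 1 library and Osr1 defined the first of them, so these values describe a pattern only.

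The 55 cells were not uniform. The 10 genes with the highest variance over mean among thinned cells were led by Lum (42.5), Postn (26.8) and Col1a1 (26.1), genes of fibrous matrix, and 98.9% of the Lum UMIs lay in 2 cells. Groups within the 55 were then set by cut-offs chosen after these values were seen, and they are given with no test.

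A group of 6 cells had 2 or more Epcam UMIs and markers of epithelium and endoderm. They held 68 of the 71 Epcam UMIs, all 77 Cldn6 UMIs, 19 of 20 Foxa2 UMIs and all 20 Shh UMIs. Epcam and Cldn6 are cell surface proteins of epithelia, and Foxa2 and Shh are made by foregut endoderm. The same cells had no UMI of Foxf1, Wnt2, Tbx5 or Aldh1a2, 3 UMIs of Bmp4 and 8 of Nr2f2, but 19 of Isl1, and 2 to 8 Osr1 UMIs each. Their genes go against the label, and they are described by their rule. Their median of 22768.5 UMIs was near that of all 55 cells, and the doublet caller marked none of them.

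A further 2 cells had 20 or more Lum UMIs, with exactly 2 Osr1 UMIs each. They held 263 of the 266 Lum UMIs, 193 of the 200 Postn UMIs, 202 of the 213 Col1a1 UMIs and 67 of the 68 Dcn UMIs. They had 20 Wnt2 and 12 Bmp4 UMIs but 1 of Nr2f2, none of Isl1, Tbx5 or Aldh1a2, 29 of the 34 Hand1 UMIs and 13 UMIs of Upk3b, a mesothelial gene. Without these 8 cells, 47 remained. The posterior heart field count over the other non-myocyte cells was still 10 higher and 0 lower, although Hand1, at -1.63 on the log2 scale, left the count only because it no longer passed the level filter. By contrast, 1 matrix gene was at least 2-fold higher instead of 6, and none of the epithelial list instead of 3. Log2 folds of the 3 markers and Foxf1 were then 2.62 for Bmp4, 2.69 for Wnt2, 2.12 for Nr2f2 and 3.30 for Foxf1.

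Among the 47, 9 cells had 3 or more UMIs of Barx1, a homeobox gene that was also one of the pharyngeal gate genes. In them Foxf1 was at 3.20 UMIs per 10000 (2.44 to 4.12), Isl1 at 2.51 (1.84 to 3.33) and Hoxa5 at 1.17 (0.735 to 1.78), and Wnt2 was at 1.28 (0.820 to 1.90). Another 21 cells had 3 or more Foxf1 UMIs, with Wnt2 at 3.80 (3.31 to 4.34), Aldh1a2 at 1.22 (0.953 to 1.55), Bmp4 at 1.22 and Nkx2-5 at 1.28 (1.00 to 1.61). These 21 held 30 of the 31 Nkx6-1 UMIs and 91 UMIs of Cxcl13, a chemokine gene, found in 9 of the 21 cells, with 62 of the UMIs in 1 cell. The last 17 cells had under 3 Foxf1 UMIs and higher levels of Osr1 (6.36), Bmp4 (3.27, 2.64 to 4.01), Nr2f2 (5.48, 4.66 to 6.42) and Nkx2-5 (4.36, 3.63 to 5.20), with a median myocyte sum of 31.4 against 15.2 in the 21. The Foxf1 cut-off was not adjusted for depth, and the median was 16895 UMIs in the 17 and 25003 in the 21. Csrp3 was at 4.46 in the 17 and 1.07 in the 21, and Mef2c, a factor of cardiac muscle, at 3.45 and 1.05. Over all 55 cells, thinned, Bmp4 was found in 21 cells, a set other than the 21 above, and missed in 34. Epcam was found in 6 of the 34 and in none of the cells with Bmp4. Foxf1 was found in 7 of the 21 cells with Bmp4 and in 20 of the 34 without it, and Nkx2-5 in 16 and 12. Many other gene pairs were also counted.

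**Figure D4:**
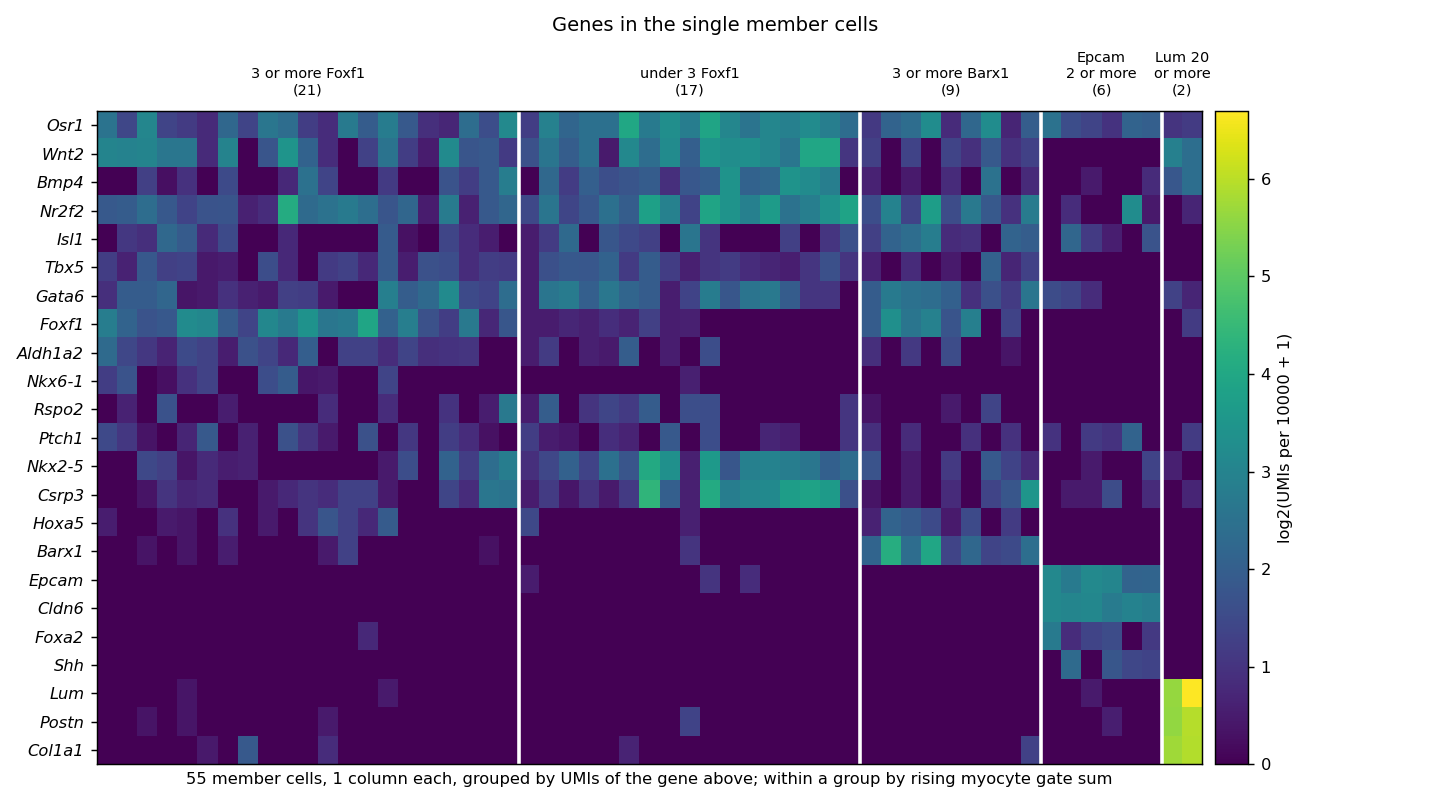
Each column is 1 of the 55 cells and each row a gene, coloured by log2(UMIs per 10000 + 1). From left to right stand the 21 cells with 3 or more Foxf1 UMIs, the 17 with fewer, the 9 with Barx1, the 6 with Epcam and the 2 with Lum. The Epcam block lacks Wnt2, Foxf1, Tbx5 and Aldh1a2, and Nkx2-5 and Csrp3 are brighter in the second block than in the first.

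Because 50 Osr1 cells lay over the myocyte limit, the limit cuts a range and not a gap. To see the genes across it, 96 cells with 2 or more Osr1 UMIs (the 47, and 49 over the limit without another gate) were ordered by myocyte sum, in ranges chosen after the data were seen. There were 29 cells under 25 UMIs per 10000, 18 at 25 to 100, 23 at 100 to 400 and 26 at 400 or more. Foxf1 was at 4.23 (3.76 to 4.74), 1.18 (0.839 to 1.60), 0.291 (0.170 to 0.466) and 0 (0 of 26 cells, up to 0.0532) in that order. Aldh1a2 was at 1.21, 0.323, 0.171 and 0.0289, and Isl1 at 1.51, 1.26, 0.634 and 0. Nkx2-5 was at 1.07 (0.836 to 1.34), 4.26 (3.59 to 5.01), 8.03 (7.32 to 8.79) and 7.78 (7.14 to 8.46). Bmp4 was highest in the second range, at 0.979, 3.20 (2.63 to 3.86), 0.976 and 0.0722, and Mbnl3 had the same shape, at 1.86, 3.29, 0.428 and 0.0722.

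Tbx5 was level across the 4 ranges, at 1.24, 1.23, 1.15 and 1.30 with overlapping intervals. Wnt2 was at 3.30, 4.88, 4.45 and 2.45. The sarcomere genes that the limit did not use followed the limit: Tnni1 was at 2.75, 11.7, 22.9 and 36.5, and Ttn at 0.115, 0.529, 5.51 and 15.0. Osr1 itself was at 3.45, 4.94, 2.41 and 1.39. How far free myocyte RNA or pairs of cells contribute to the middle ranges was not tested. The whole cardiomyocyte list, 12 genes, summed to 9.73 UMIs per 10000 in the Osr1 cells and to 6.70 to 11.2 in the 4 other non-myocyte groups. All these groups were held under the myocyte limit, so low sums were partly set by the selection. In single Osr1 cells the list ranged from 1.91 to 33.5.

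**Figure D5:**
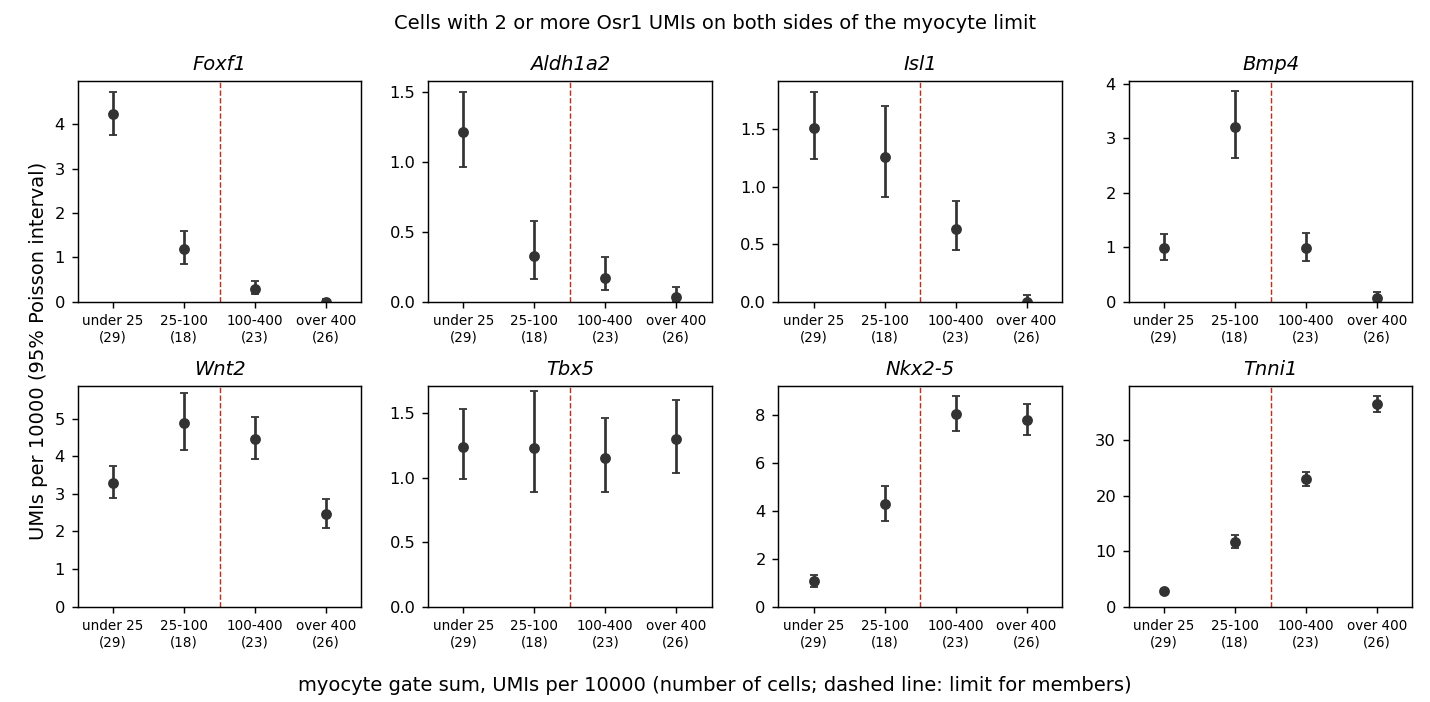
UMIs per 10000 (95% Poisson intervals) of 8 genes in 96 cells with 2 or more Osr1 UMIs, in 4 ranges of the myocyte gate sum; the dashed line is the limit for the 55 cells. Foxf1 goes from 4.23 to 0, Bmp4 is highest at 3.20 in the second range, Tbx5 stays at 1.15 to 1.30, and Nkx2-5 and Tnni1 are higher to the right.

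Of the other cell types, endothelial markers summed to 1.05 UMIs per 10000 in the Osr1 cells and 16.8 in the endothelial-type cells, with 2 of 13 genes at 0 in the Osr1 cells. The endothelial gate had set these groups apart, so the sums are a description. Macrophage and platelet markers summed to 0.0929, with 6 of 12 genes at 0, neural crest markers to 0.287, with 5 of 9 at 0, and somite and skeletal muscle markers to 0.287, with 6 of 9 at 0. Xist alone was found in 16 Osr1 cells and Y-linked genes alone in 31, with both in 6 and neither in 2, so the cells came from embryos of both sexes. The proepicardial-type cells had 26 and 15, and the pharyngeal-type cells 21 and 1. Most of the pharyngeal-type cells thus came from female embryos, and sex was not balanced in either comparison. Its part in the differences was not tested.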

How the data were processed

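Gene expression was measured in sorted single cells of 4 libraries. The deposited values are raw UMI counts per gene and cell, made by the authors with Cell Ranger 2.1.1 on mm10, per the submitters' processing notes. For annotation and cell calling, the settings are not given in these sources. Gene symbols were taken as deposited. The deposited barcode lists were not used because they do not match the cells of the matrices (some list every possible barcode, and the P0 pair is exchanged), so barcodes shared between libraries could not be counted.

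Counts were summed per group of E9.5 cells and divided by the group's total, giving UMIs per 10000 with exact Poisson 95% intervals. Ratios have exact conditional binomial intervals, and shares exact Clopper-Pearson intervals. Folds had 0.1 UMIs per 10000 added, with a level filter of 0.25. Cells were thinned to 5000 UMIs with a fixed seed. No test was made. The calculation was checked on simulated counts. Beside the listed genes, named genes were the 20 highest and 10 lowest folds over the other non-myocyte cells seen in at least 20% of thinned cells of the higher group, the 8 highest and lowest of the other 2 comparisons, the 10 most variable and the 8 most like Osr1. The few further genes given for single cells were chosen after their values were seen.

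The cells and gene lists were chosen with earlier results of these data known. Python 3.11.15, numpy 2.4.6, scipy 1.17.1, pandas 2.3.3 and scanpy 1.11.5 (with scrublet, as an alternative only) were used. Some withheld items are not reported here. Positions are from GENCODE, promoters from RefSeq.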

Additional observations from a re-analysis of the deposited data

How the results depend on the processing

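The number of Osr1 cells was 43 to 66 under every alternative tried, against 55. Counts of genes depend on the floor. With 0.5 UMIs per 10000 added, 32 genes were higher and 53 lower against the other non-myocyte cells, 35 and 46 against the proepicardial-type cells, and 100 and 17 against the pharyngeal-type cells. With a level filter of 1 they were 33 and 33, 26 and 30, and 65 and 13. With no filter, 293 were lower in the first comparison, 195 higher and 203 lower in the second, and 516 and 120 in the third. Against all other E9.5 cells, 269 were higher, and the median log2 fold of all genes was 0.28. With totals without mitochondrial, ribosomal, haemoglobin and myocyte genes, 96 were lower than in the pharyngeal-type cells. The main counts were 119 and 129, 106 and 116, and 257 and 61. Higher genes made up 48.0% of the first comparison's calls, 37.6% with 0.5 added, 37.3% with no filter and 59.1% against all other cells. A UMI was found in at least 50% of the Osr1 cells for 4 of 17 posterior heart field genes thinned and 12 unthinned, a summary chosen after the shares were seen.

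Of 2145 recomputed folds of 87 named genes, 28 that were at least 2-fold changed sign and 643 others fell outside the counting interval of the ratio as reported, and of 1914 recomputed list counts 240 moved by over 1.5 times. Without the 8 Epcam and Lum cells, an alternative chosen after seeing the data, log2 folds over the other non-myocyte cells were -2.04 for Lum, -1.70 for Postn, -1.88 for Col1a1, -1.35 for Epcam and -1.90 for Cldn6. Over the proepicardial-type cells they were -0.91 for Lum, -1.01 for Postn, -1.70 for Col1a1 and -0.60 for Cldn6, and over the pharyngeal-type cells -0.31 for Lum, -1.05 for Epcam and -1.86 for Cldn6. With at least 3 Osr1 UMIs, which leaves out the Lum cells, Lum was at -2.58, -0.77 and -0.17 in the 3 comparisons, Postn at -2.25 and Col1a1 at -2.41 in the first, Postn at -1.07 and Col1a1 at -1.87 in the second, and Fst at -0.17 in the first. Against all other E9.5 cells, which include the myocytes, Atp1b1 was at -0.16, Rbm24 at -0.58, Csrp3 at -1.76, Ccdc141 at -0.56, Eno3 at -0.52, Unc45b at -0.98, Sh3bgr at -2.49 and Nkx2-5 at -0.62.

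No paired analysis was possible because E9.5 has 1 library, so there was no replicate to leave out. Transcripts at or under 3 UMIs in a group are not shown to be absent.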
